A study of Homo sapiens with 6 samples.

Results

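Transcripts of 10 genes of the JAK-STAT pathway were described in T24 cells, a human bladder cancer (BLCA) line, with and without forced expression of RNF112. The 10 genes were chosen by symbol and comprise 2 kinases (JAK1 and JAK2), 4 transcription factors (STAT3, STAT5A, STAT5B and STAT6) and 4 feedback inhibitors (SOCS1, SOCS2, SOCS3 and CISH). All 10 were found among the 23152 genes of the count table, and all 10 passed the filter on low counts, as did 14467 genes in all. Bulk RNA was sequenced from 3 samples labelled vector and 3 labelled oeRNF112, all T24 cells. RNF112 is a RING finger ubiquitin ligase, and oeRNF112 stands for its overexpression. Whether these samples came from transient transfection or a stable line is not given in the sources used here. The samples are of 1 cell line and are not said to be separate cultures, so p-values measure the spread between these samples, which may be technical. Sample totals ranged from 40326143 to 41259569 counts for vector and from 40029547 to 40541536 for oeRNF112.

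Cytokine receptors without kinase activity of their own carry JAK kinases on their cytoplasmic tails. When a cytokine joins the receptor chains, the JAKs phosphorylate the receptor and then the STATs, which dimerise, enter the nucleus and bind DNA. Genes of the SOCS family are among those switched on, and their proteins dampen the receptor by blocking the JAKs or by bringing a ubiquitin ligase to them. STAT3 is best known downstream of the IL6 family, STAT5A and STAT5B downstream of growth hormone, prolactin and many haematopoietic cytokines, and STAT6 downstream of IL4 and IL13. RNA-seq reads the abundance of these transcripts and not the phosphorylation through which the pathway signals.

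The labels were first set against RNF112 itself. Its counts were 27, 19 and 24 with the vector and 29753, 36963 and 31712 with oeRNF112. The counts came from all reads of the gene, so transcripts of the introduced and of the chromosomal gene are not separated. T24 identity was set against marker lists. The keratin KRT7 had the most counts of the urothelial markers, though KRT18 and KRT8 were above it per length, and the 14 urothelial markers with a row summed to between 3627 and 4646 CPM (counts scaled by sample total and TMM factor) in vector and between 2791 and 3330 in oeRNF112. Of the 9 of them that were tested, EPCAM was higher and KRT7, KRT18 and FOXA1 were lower in oeRNF112. No sample exceeded 7 counts of UPK3A, UPK2, KRT20, CDH1 or TP63, or 20 of UPK1A. The luminal factors PPARG, FOXA1 and GATA3 were present, with 2056 to 2485, 571 to 1644 and 117 to 173 counts. The 8 fibroblast markers summed to between 9.89 and 12.6 CPM, with COL1A1 the most abundant, and 5 endothelial markers to at most 0.638 CPM. The 11 leukocyte markers summed to 36.0, 32.4 and 34.5 CPM in vector and to 62.2, 70.1 and 55.5 CPM in oeRNF112. Their most abundant gene, the lysosomal glycoprotein CD68, was 2.31 times as high in oeRNF112 (log2 fold change 1.21, SE 0.120), while the leukocyte gene LAPTM5 was lower and CD3E and TYROBP had at most 4 counts. The part of these marker genes in the results below was not tested.

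Of the 10 genes, 3 were lower in oeRNF112 and none was higher. STAT6 fell to 0.693 times its vector level, STAT5A to 0.682 times and SOCS2 to 0.767 times, whereas JAK1, JAK2, STAT3, STAT5B, SOCS1, SOCS3 and CISH did not pass the threshold. In bulk RNA, fewer cells with a transcript and less of it per cell cannot be told apart. A gene was called when edgeR's quasi-likelihood test gave it a p under 0.05 after Benjamini-Hochberg adjustment over all 14467 genes. DESeq2 called none of the 10 as higher either, and at an unadjusted p under 0.05 edgeR had 1 on the higher side (CISH) and 4 on the lower. The share of all genes that pass this looser cutoff is not given here. Counts at an unadjusted p, here and below, are thus a description only. By the adjusted p, 18.1% of all genes tested were called, 9.97% as higher and 8.14% as lower. The 10 genes thus had 30% called as lower and a median log2 fold change of -0.14, beside a median of 0.00 over all genes tested. For 4 of the 10 genes the normalised CPM left a gap between the groups, all lower in oeRNF112, namely the 3 called genes and STAT3. Over all genes tested such a gap was seen in 36.8%, with 18.9% higher and 17.9% lower. With 10 genes these shares are a description, and nothing is read from them as particular to the pathway.

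**Figure D1:**
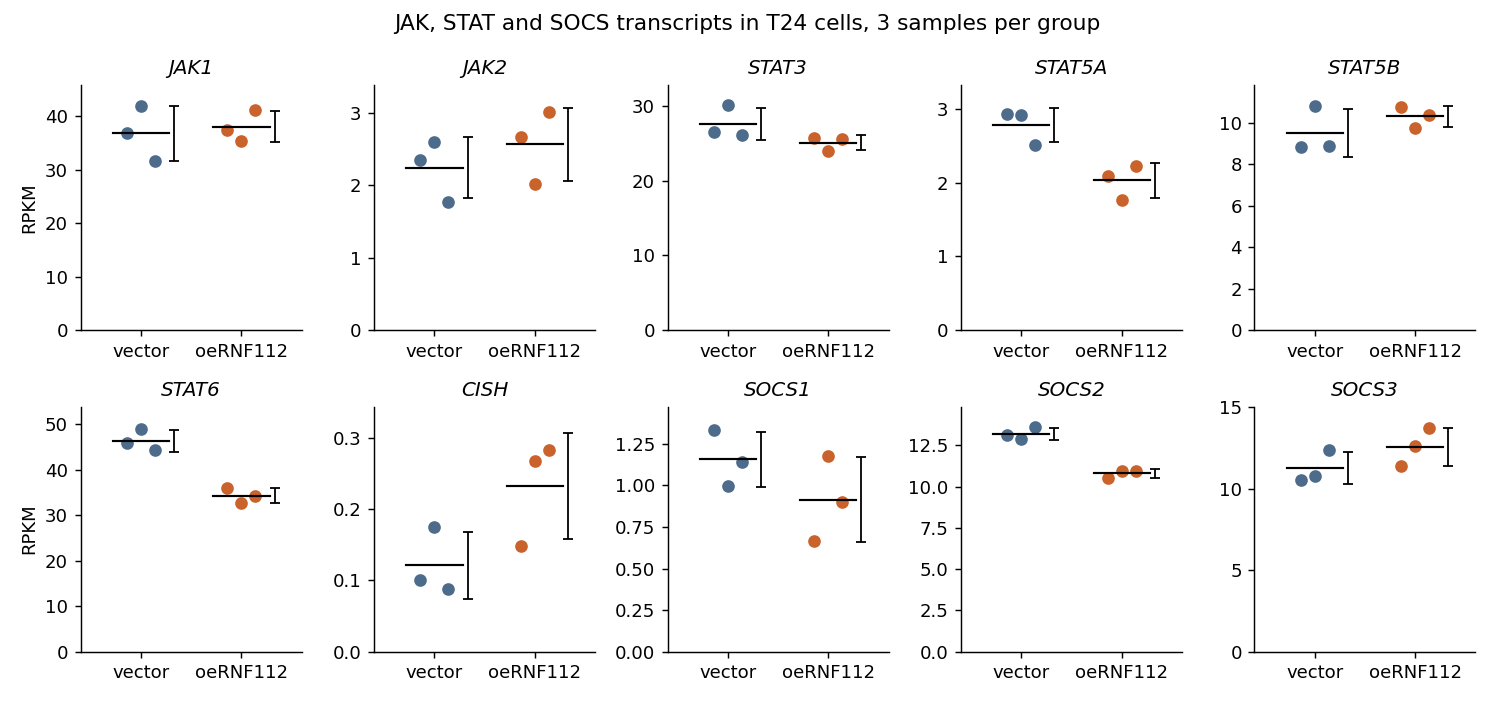
Level of each of the 10 genes in every sample, in RPKM on a linear axis that starts at 0, for 3 vector (blue) and 3 oeRNF112 (orange) samples. Lines are group means and bars 1 SD to each side. The samples of STAT6, SOCS2 and STAT5A form separate groups, while those of JAK1, JAK2, SOCS1 and SOCS3 overlap.

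The levels per transcript length spanned a wide range. RPKM (the deposited read counts scaled by gene length and by sample total) allows the genes to be ranked, and the mean in vector ran from 46.4 ± 2.44 (SD, n = 3) for STAT6 to 0.121 ± 0.0472 (SD, n = 3) for CISH. In vector the order was STAT6, JAK1, STAT3, SOCS2, SOCS3, STAT5B, STAT5A, JAK2, SOCS1 and CISH. Neighbours whose samples overlapped in that order were SOCS3 with STAT5B and STAT5A with JAK2. In oeRNF112 the first place passed to JAK1, but its samples overlapped those of STAT6 in second place. SOCS3 stood above SOCS2 there, SOCS2 overlapped STAT5B, and JAK2 overlapped STAT5A.

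Because SOCS genes answer to STATs, letters matching STAT recognition sites were looked for close to the start of each gene. STAT dimers bind a palindrome with a spacer of 3 bases, TTCNNNGAA, and STAT6 is known to accept a spacer of 4, TTCNNNNGAA. Both motifs read the same on either strand and they do not share matches. They were searched in the RefSeq promoter windows on GRCh38.p14, 250 bases before to 50 after an annotated transcript start, of which 9 of the 10 genes had one (not SOCS2). For 7 of them this start is the outermost start of the gene. The STAT5B window lies 11979 bases and the STAT6 window 1073 bases inside the gene, so their outermost starts were not searched. Of the 9 windows, those of CISH and STAT5A held a match. The stretches are shown because CISH is the textbook feedback gene of STAT5, and the capitals mark the matches.
CISH, distal pair: ccgttTTCCTGGAAagTTCTTGGAAatctg
CISH, proximal pair: ggTTCTAGGAAgacgctgcTTCCGGGAAgg
STAT5A: ttttttttttTTCCTCTGAAgttaaaagaa

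The distal CISH pair lies at chr3:50611991-50612020 and the proximal pair at chr3:50611876-50611905, both read on the minus strand, beginning 246 and 131 bases before the RefSeq start of CISH. In GENCODE v29 the distal pair is inside a 5′ exon of MAPKAPK3, which runs the other way, and the proximal pair is in no exon. The STAT5A stretch lies at chr17:42287200-42287229 on the plus strand, beginning 239 bases before the RefSeq start, in no GENCODE v29 exon. The 4 matches of CISH have the 3-base spacer, and the match of STAT5A has the 4-base spacer. Among 35116 promoter windows of the same length, 7.66% held TTCNNNGAA, 6.44% held TTCNNNNGAA and 13.5% held either. At least 4 matches of TTCNNNGAA were found in 7 windows (0.0199%), that of CISH included. A match is a string of letters and was not tested for binding here.

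JAK1, the kinase shared by the receptors for interferons and for the IL6, IL2 and IL10 families, lies at chr1:64833229-65067746 on the minus strand. Its level was 36.9, 41.9 and 31.6 RPKM in vector and 37.5, 35.4 and 41.2 in oeRNF112. The groups overlapped, and the log2 fold change was -0.04 with a 95% interval from -0.28 to 0.19 (adjusted p = 0.80, edgeR). The sign of this difference turned positive when the samples were scaled by their totals alone (0.05). JAK2, the kinase of the growth hormone, prolactin, erythropoietin and interferon gamma receptors, lies at chr9:4984390-5129948 on the plus strand and was far less abundant. It had 2.35, 2.60 and 1.77 RPKM in vector and 2.66, 2.02 and 3.02 in oeRNF112, again with overlap. Its log2 fold change was 0.10, with a 95% interval from -0.27 to 0.47. The RPKM ratio of JAK1 to JAK2 was 16.6 ± 1.13 (SD, n = 3) in vector and 15.1 ± 2.13 (SD, n = 3) in oeRNF112. Neither interval reaches as low as -0.53, the log2 fold change of STAT6.

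The other kinases of the family gave no call either. TYK2, the partner kinase of the type I interferon and IL12 receptors, had 10.97 ± 0.793 RPKM in vector and 11.2 ± 0.557 in oeRNF112 (SD, n = 3). Its log2 fold change was -0.06 (adjusted p = 0.678, edgeR) and turned to 0.04 with samples scaled by their totals. JAK3, the kinase of lymphocytes that pairs with the common gamma chain, had at most 12 counts in a sample and was not tested.

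STAT6 showed the firmest difference of the 10 genes. It lies at chr12:57095408-57111362 on the minus strand and had 8391, 8808 and 7915 counts in vector against 6385, 5888 and 6128 in oeRNF112. Per length its level was 45.8, 49.0 and 44.2 RPKM in vector and 36.0, 32.7 and 34.2 in oeRNF112. Every oeRNF112 sample was below every vector sample. The log2 fold change was -0.53 (SE 0.0800, 95% interval from -0.71 to -0.35, adjusted p = 0.00235 in edgeR). The call was kept in 15 of 15 alternative fits, among them those that left out each sample in turn, where the change was between -0.56 and -0.50. The 3′ end of STAT6 overlaps the neighbouring gene NAB2 on the other strand by 69 exonic bases, and NAB2 differed in the opposite direction (log2 fold change 0.34, adjusted p = 0.0408 in edgeR). LRP1, also on the other strand, shares 59 exonic bases with STAT6 and was not called (log2 fold change 0.19, adjusted p = 0.501 in edgeR). Since the use of strand in counting is not given, reads of the shared bases cannot be assigned to one gene.

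STAT5A and STAT5B are neighbouring genes with closely related products, and STAT5A alone was called. Their RefSeq spans overlap by 932 bases on opposite strands, and the STAT5A stretch printed above lies inside the span of STAT5B. In GENCODE v29 they do not overlap. STAT5A, on the plus strand at chr17:42287439-42311943, had 520, 508 and 437 counts in vector and 360, 309 and 388 in oeRNF112, equal to 2.93, 2.92 and 2.52 RPKM against 2.09, 1.77 and 2.23. The groups did not overlap, and the log2 fold change was -0.55 (SE 0.124, 95% interval from -0.83 to -0.28, adjusted p = 0.0147 in edgeR). STAT5B, on the minus strand at chr17:42199177-42288370, had 8.82, 10.8 and 8.89 RPKM in vector and 10.8, 9.77 and 10.4 in oeRNF112. Its samples overlapped, and its log2 fold change was 0.02 with a 95% interval from -0.19 to 0.24. STAT5B was the more abundant of the pair in all 6 samples. The RPKM ratio of STAT5B to STAT5A was 3.01, 3.71 and 3.53 in vector and 5.16, 5.51 and 4.65 in oeRNF112, so that the ratios of the groups did not overlap. STAT5A alone already separated the groups. A ratio within a sample does not depend on how samples are scaled, and it was not tested. Of the 50-base words in the STAT5A transcripts of GENCODE v29, 8.61% also occur in those of STAT5B, so a small share of reads could have come from either gene. The STAT5A call was lost without vector replicate 1 (log2 fold change -0.49, adjusted p = 0.0823 in edgeR), without oeRNF112 replicate 1 (-0.57, adjusted p = 0.0522) and with a replicate block (-0.55, adjusted p = 0.0823), while the size of the change held.

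STAT3, the acute-phase factor of the IL6 family, lies at chr17:42313324-42388442 on the minus strand next to the STAT5 genes. It had 26.6, 30.1 and 26.2 RPKM in vector and 25.7, 23.96 and 25.6 in oeRNF112. The groups did not overlap, yet the gap between the nearest samples was small. The log2 fold change was -0.23 (SE 0.0826, 95% interval from -0.42 to -0.05), which did not pass the threshold (adjusted p = 0.0797, edgeR) nor in any of 15 alternative fits. The RPKM ratio of STAT6 to STAT3 was 1.72, 1.63 and 1.69 in vector and 1.40, 1.37 and 1.33 in oeRNF112, without overlap. The ratio was not tested, and STAT6 alone already separated the groups. STAT6 was therefore lower in oeRNF112 relative to STAT3 as well as relative to all reads.

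Among other STATs, STAT2 and STAT4 were not called. STAT2, a STAT of type I interferon signalling, had a log2 fold change of 0.26 that did not pass the threshold (adjusted p = 0.0948), and was called in 4 of 15 alternative fits. STAT4, a lymphocyte STAT of IL12 signalling, was scarce, with 20, 59 and 54 counts in vector and 73, 90 and 102 in oeRNF112 (log2 fold change 0.91, adjusted p = 0.0986 in edgeR). Without vector replicate 2, STAT4 was called (1.15, adjusted p = 0.0380), as was STAT2 (0.34, adjusted p = 0.0342).

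**Figure D2:**
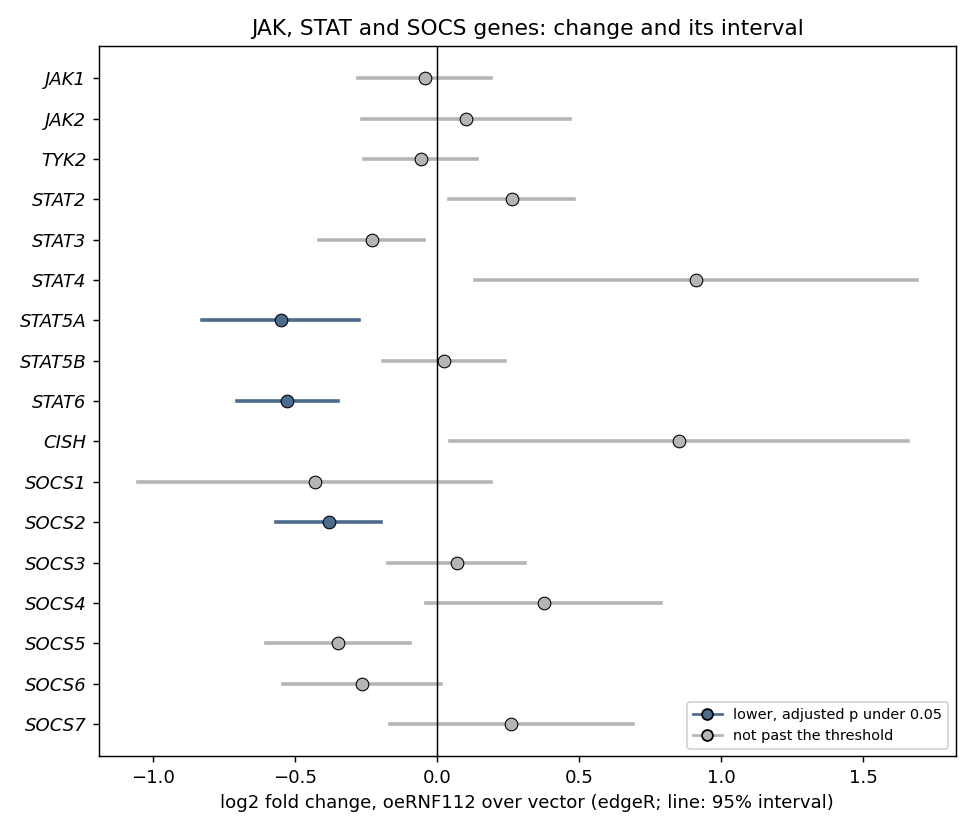
Log2 fold change of oeRNF112 over vector for JAK, STAT and SOCS genes, with 95% intervals from edgeR (3 samples per group). STAT5A, STAT6 and SOCS2 lie between -0.55 and -0.38 to the left, and the widest intervals belong to the scarce genes SOCS1, CISH and STAT4.

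Among the feedback inhibitors only SOCS2 was called. SOCS2, known for limiting growth hormone signalling, spans chr12:93569969-93626236 and had 3265, 3140 and 3304 counts in vector and 2536, 2680 and 2658 in oeRNF112. Its level was 13.1, 12.9 and 13.6 RPKM in vector and 10.5, 10.97 and 10.92 in oeRNF112, with little spread inside either group. The log2 fold change was -0.38 (SE 0.0828, 95% interval from -0.57 to -0.20, adjusted p = 0.0123 in edgeR). The antisense gene SOCS2-AS1 shares 277 exonic bases with it and was lower too, with 141, 154 and 143 counts in vector and 104, 108 and 99 in oeRNF112 (log2 fold change -0.57, adjusted p = 0.0326 in edgeR). Whether strand was used in counting is not given in the sources used here, so reads of the shared bases cannot be assigned to one of them. The SOCS2 call was lost without vector replicate 1 (-0.37, adjusted p = 0.0676), without oeRNF112 replicate 1 (-0.36, adjusted p = 0.0719) and with a replicate block (-0.38, adjusted p = 0.125).

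SOCS3, the main brake on gp130 and a classical target of STAT3, lies at chr17:78356778-78360925 on the minus strand. It had 10.6, 10.8 and 12.4 RPKM in vector and 11.4, 12.6 and 13.7 in oeRNF112. The groups overlapped, and the log2 fold change was 0.07 with a 95% interval from -0.17 to 0.31. The RPKM ratio of SOCS3 to SOCS2 was 0.804, 0.839 and 0.910 in vector and 1.09, 1.15 and 1.26 in oeRNF112. These ratios did not overlap, but SOCS2 alone already separated the groups. The ratio is thus no separate result on SOCS3, and it was not tested. SOCS1, the inhibitor of interferon signalling, lies at chr16:11254417-11256204 on the minus strand and had 68, 50 and 57 counts in vector and 33, 59 and 45 in oeRNF112. The second oeRNF112 sample reached into the vector range, and the log2 fold change of -0.43 had a 95% interval from -1.05 to 0.19.

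CISH, the founding member of the SOCS family and a target of STAT5, lies at chr3:50606489-50611774 on the minus strand and was the scarcest of the 10 genes. It had 21, 36 and 18 counts in vector and 30, 55 and 58 in oeRNF112. The second vector sample was above the first oeRNF112 sample, so the groups overlapped. The log2 fold change was 0.85 (SE 0.362, 95% interval from 0.04 to 1.66, adjusted p = 0.132 in edgeR), and only the fit without vector replicate 2 called it (1.19, adjusted p = 0.0460). CISH shares 218 exonic bases with MAPKAPK3, a kinase gene on the other strand with 1998 to 2117 counts for vector and 2651 to 2999 for oeRNF112. MAPKAPK3 was higher in oeRNF112 (log2 fold change 0.40, adjusted p = 0.0154 in edgeR), and its part in the CISH counts was not tested.

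The other SOCS genes, SOCS4 to SOCS7, and the ligase components that SOCS proteins recruit gave no call. SOCS5 was nearest, with a log2 fold change of -0.35 (adjusted p = 0.0599, edgeR), and was called by DESeq2 (adjusted p = 0.0330) and without vector replicate 3 (-0.44, adjusted p = 0.0266). SOCS6 had a log2 fold change of -0.27, SOCS4 of 0.37 and SOCS7 of 0.26. SOCS4 and SOCS7 were called without vector replicate 2, at 0.56 and 0.52 (adjusted p = 0.0246 and 0.0214, edgeR). Of the adaptors and scaffold, ELOB had a log2 fold change of -0.34 (adjusted p = 0.112), RNF7 of -0.25, ELOC of 0.06 and CUL5 of -0.04. ELOB was called without vector replicate 2 (-0.46, adjusted p = 0.0188) and without oeRNF112 replicate 2 (-0.47, adjusted p = 0.0400), and RNF7 without oeRNF112 replicate 2 (-0.36, adjusted p = 0.0449). CUL5 and ELOC changed sign between fits. At an unadjusted p under 0.05 edgeR had SOCS5 and ELOB, both on the lower side.

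Several of these genes moved together between samples of the same group. JAK1, JAK2, SOCS4, SOCS5, SOCS6 and SOCS7 all had their highest RPKM of the vector group in replicate 2 and their lowest in replicate 3, and all had their highest of the oeRNF112 group in replicate 3 and their lowest in replicate 2. The receptor genes IL6ST and OSMR did the same. ELOB and RNF7 had exactly the opposite order. Over all genes tested, 2563 (17.7%) had the order of JAK1 and JAK2 and 1740 (12%) the opposite. The first set had a median gene length of 7399 bases and the second of 1866, beside 3982 over all genes tested. JAK1 and JAK2 measured 5550 and 7585 bases and SOCS7 8258, while ELOB measured 974. Samples thus differed within groups in a way that went with gene length, and the part of this in the calls was not tested. STAT6 and STAT5A shared the order of JAK1 and JAK2 in part, STAT6 in full within vector and STAT5A in full within oeRNF112. STAT3, which was not called, also had it in full within vector. SOCS2, which was called, had the opposite order within vector and its highest oeRNF112 level in replicate 2.

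**Figure D3:**
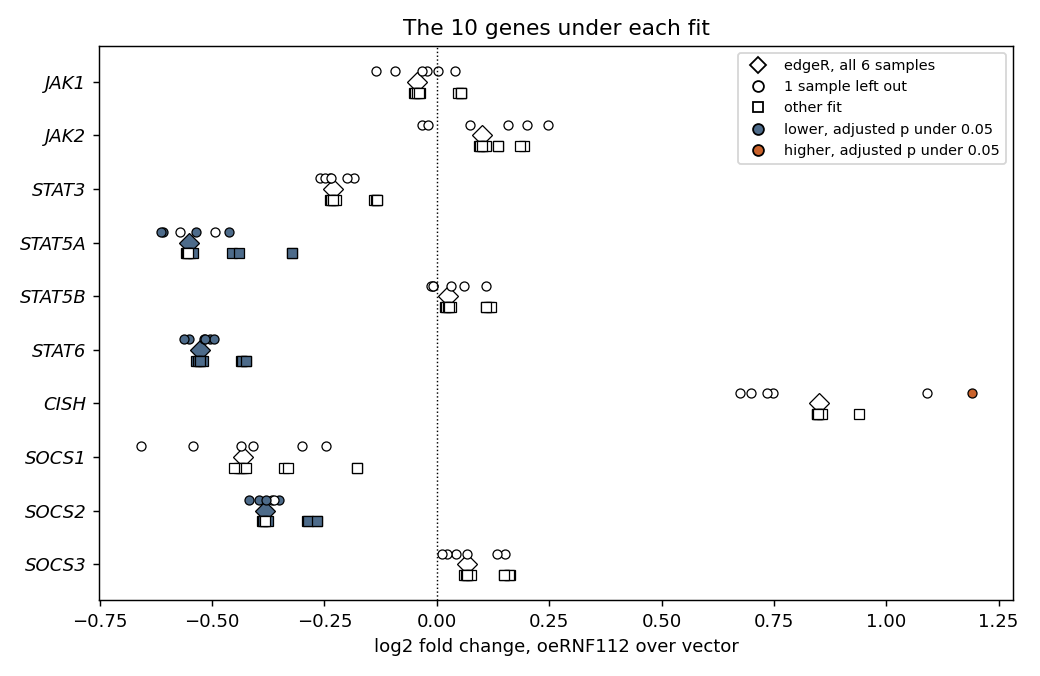
Log2 fold change of the 10 genes in the fit of all 6 samples by edgeR (diamonds), in the 6 fits that each leave out 1 sample (circles) and in the other alternative fits (squares), with filled symbols where the adjusted p was under 0.05. The fits of CISH on RPKM with a pseudocount are not drawn because the pseudocount exceeds or nears its level. STAT6 is filled throughout, STAT5A and SOCS2 in 12 of 15 alternatives, and JAK1, JAK2 and STAT5B lie on both sides of 0.

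The genes most like each called member over the 6 samples were named by Pearson correlation of log2 CPM among 11564 genes with a mean count of at least 100. For STAT6 these were UNC119B (r = 0.9992), IVD (0.9984) and FRMD5 (0.9983). STAT5A was most like PHKB (0.9966), NEGR1 (0.9938) and EXOC6 (0.9935), and SOCS2 was most like UBA1 (0.9969), ZBED5-AS1 (0.9967) and PIGS (0.9959). With 6 samples in 2 groups such values are common. An r over 0.95 was reached by 380 genes with STAT6, 402 with SOCS2 and 160 with STAT5A.

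Upstream of the JAKs, 42 receptor genes were listed, of which 38 had a row, 23 were tested, 6 were higher and 2 lower. The list had 34.8% called beside 18.1% of all genes tested, and a median log2 fold change of 0.13. Of the 8 calls, 5 were lost without vector replicate 1 or with a replicate block. IL13RA2, the decoy receptor that takes up IL13, had 6.99, 6.13 and 6.39 RPKM in vector and 19.9, 27.0 and 20.3 in oeRNF112. It was 3.23 times as high in oeRNF112 (log2 fold change 1.69, SE 0.147, adjusted p = 0.000168 in edgeR). IL6R, the ligand-binding chain for IL6, had 0.550, 0.598 and 0.466 RPKM in vector and 1.17, 1.18 and 1.38 in oeRNF112 (log2 fold change 1.12, adjusted p = 0.00109). IL22RA1, the epithelial chain of the IL22 receptor, was higher by a like amount (1.06, adjusted p = 0.00435). All 3 were called in every alternative fit that gave them a value. IFNLR1, the chain specific to type III interferons, and EPOR, the erythropoietin receptor, were higher with log2 fold changes of 0.58 and 0.43 (adjusted p = 0.0301 and 0.0318). IL27RA, the chain for IL27, was lower (-0.46, adjusted p = 0.0268), and the other lower receptor was IL11RA (-0.51, adjusted p = 0.0373). These 4 calls were lost in most of the 6 fits that left out a sample. IL27RA was called in that without vector replicate 2, IFNLR1 in that without oeRNF112 replicate 2, EPOR in those without replicate 3 of either group, and IL11RA in those without vector replicate 2 or oeRNF112 replicate 1. In these fits the adjusted p reached 0.097 for IL27RA, 0.115 for IFNLR1, 0.122 for EPOR and 0.124 for IL11RA. All 4 calls were also lost with a replicate block (adjusted p = 0.124, 0.133, 0.149 and 0.137 in the same order), and those of IL27RA and IL11RA with library totals and in all 3 limma fits on RPKM.

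IFNGR2 and IL10RB, the receptors of highest RPKM in the list, were not called. Their levels were 81.3 ± 2.79 and 46.9 ± 1.77 in vector and 77.0 ± 6.48 and 48.7 ± 3.34 in oeRNF112 (SD, n = 3). The shared signal chain gp130, encoded by IL6ST, had 6961, 8903 and 4328 counts in vector and 8009, 7294 and 10304 in oeRNF112, with overlap (log2 fold change 0.27, 95% interval from -0.21 to 0.74). Without vector replicate 2, IL6ST was called (0.50, adjusted p = 0.0479 in edgeR), as was the oncostatin M chain OSMR (0.52, adjusted p = 0.0108). IL4R, the receptor chain that recruits STAT6, had a log2 fold change of -0.18 (adjusted p = 0.189, edgeR). IL6ST, OSMR, IL4R and IL11RA were chosen for mention after their values were seen.

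The ligand list held 43 genes, of which 31 had a row and 15 were tested, 6 of them higher and 1 lower. The median log2 fold change was 0.23. The share called was 46.7%, beside 18.1% of all genes tested. Without vector replicate 1 or with a replicate block, 2 of the 7 calls were lost. IL6, the prototype STAT3 cytokine, had 13.0, 11.1 and 12.5 RPKM in vector and 36.0, 43.3 and 44.6 in oeRNF112 (log2 fold change 1.66, SE 0.115, adjusted p = 4.34e-05 in edgeR). The 3 oeRNF112 samples were all above the 3 vector samples by a wide margin. IL11, another gp130 cytokine, was 2.14 times as high (log2 fold change 1.10) and IL24, of the IL10 family, 4.99 times as high (2.32). The colony-stimulating factors CSF3 and CSF2 were 1.74 and 1.82 times as high, and CSF3 was the most abundant ligand of the list at 210 ± 31.1 RPKM in vector and 390 ± 19.9 in oeRNF112 (SD, n = 3). EBI3, a subunit of IL27 and IL35, was lower (-0.88, adjusted p = 0.0114), a call lost without vector replicate 1 (-0.80, adjusted p = 0.0595) and with a replicate block (adjusted p = 0.0528). LIF, also a gp130 cytokine and the next most abundant, had 79.5 ± 6.72 RPKM in vector and 84.1 ± 5.56 in oeRNF112 (SD, n = 3), with a log2 fold change of -0.01 (95% interval from -0.21 to 0.19).

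Of 16 other brakes on the pathway (PIAS proteins, tyrosine phosphatases, CBL ligases, SH2B3 and USP18), 15 were tested, 1 was higher and none was lower. That is a share of 6.67%, beside 18.1% of all genes tested. At an unadjusted p under 0.05 edgeR had 3 higher and 3 lower, a count that the 18.1% does not apply to. The gene called as higher was USP18, an interferon-induced protease that also blocks the type I interferon receptor. It had 3.78, 3.14 and 3.56 RPKM in vector and 7.68, 10.6 and 9.44 in oeRNF112 (log2 fold change 1.31, adjusted p = 0.000591 in edgeR). SH2B3, an adaptor that restrains JAK2, had a log2 fold change of 0.32 that missed the threshold (adjusted p = 0.0602) and passed it in 7 of 15 alternative fits. The phosphatase PTPN1 had a log2 fold change of 0.03.

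**Figure D4:**
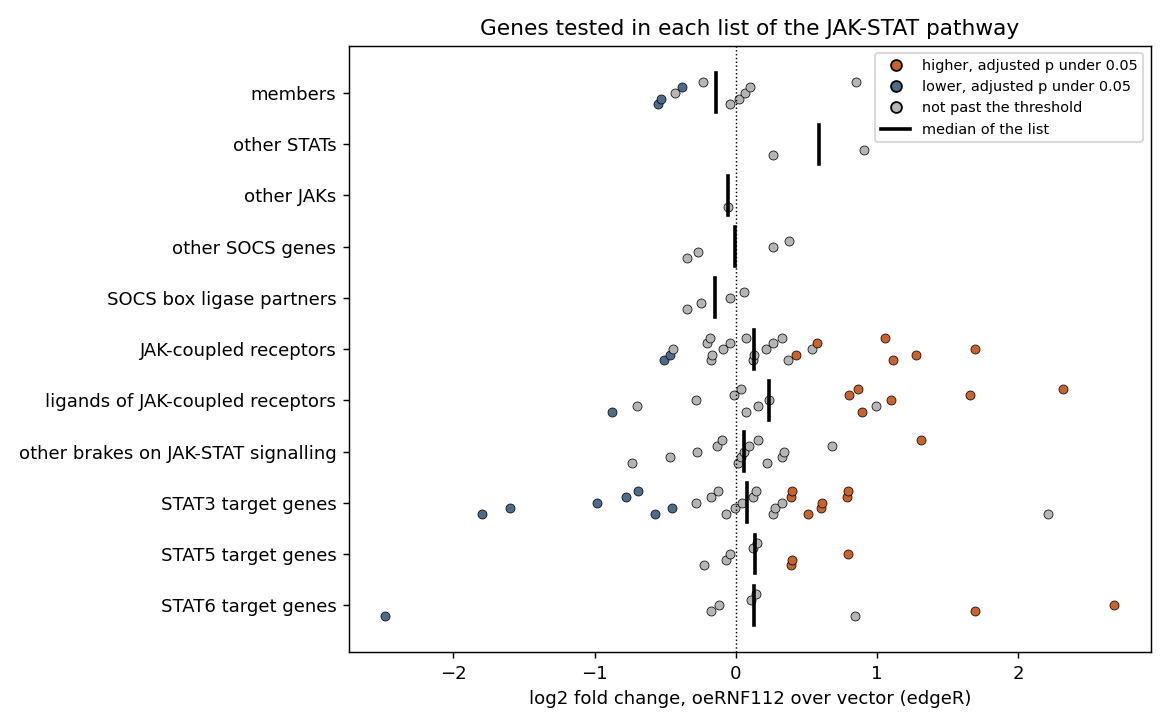
Log2 fold change (edgeR) of the tested genes of each list that are reported here, 1 point per gene, coloured where the adjusted p was under 0.05, with the median of each list as a black bar. The ligands and receptors hold most of their coloured points on the right, and the STAT3 targets hold 7 on each side.

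Target genes were listed by STAT from general knowledge, without any of the 10 genes. The STAT3 list had 36 genes, of which 26 were tested, 7 higher and 7 lower, a share of 53.8% called beside 18.1% of all genes tested. The median log2 fold change was 0.08. Of these 14 calls, 7 were lost without vector replicate 1 and 6 with a replicate block. The kinase PIM1 was higher (log2 fold change 0.80, adjusted p = 0.00124 in edgeR), as were the adhesion molecule ICAM1 (0.51), the acute-phase factor CEBPB (0.60) and the survival factor MCL1 (0.40). The growth factor response gene FOS was lower, at 13.8, 17.8 and 19.0 RPKM in vector and 5.15, 4.30 and 8.40 in oeRNF112 (log2 fold change -1.60, adjusted p = 0.00141). IRF1, an interferon-responsive transcription factor, was lower (-0.78, adjusted p = 0.000411), and so was CEBPD (-0.70, adjusted p = 0.00347). CEBPD thus went against its relative CEBPB. MCL1 lost its call without vector replicate 1 (0.41, adjusted p = 0.0545) and with a replicate block (0.40, adjusted p = 0.121). By RPKM over all samples the most abundant targets were MCL1, at 174 ± 5.96 in vector, and the cyclin gene CCND1, at 124 ± 7.39 in vector and 126 ± 7.40 in oeRNF112 (SD, n = 3), which was not called. Within oeRNF112 alone, ICAM1 and TIMP1 stood above CCND1. MMP9, chosen after its values were seen, had 262 counts in oeRNF112 replicate 1 and between 13 and 27 in the other samples. That sample also had 97 counts of the myeloid gene LYZ, against at most 8 elsewhere. STAT6 kept its call without that sample, and STAT5A and SOCS2 did not, as given above.

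The STAT5 list had 18 genes, of which 8 were tested, 3 were higher (PIM1, MCL1 and BCL6) and none was lower, with 0 lower at an unadjusted p under 0.05 as well in edgeR. The share called was 37.5%, beside 18.1% of all genes tested, and the median was 0.14. Without vector replicate 1 or with a replicate block, 2 of the 3 calls were lost (MCL1 and BCL6). The first 2 of these stand on the STAT3 list as well, as does BCL6, a transcriptional repressor with a log2 fold change of 0.39 (adjusted p = 0.0270, edgeR). Of the 6 fits that left out a sample, only that without vector replicate 2 called BCL6, and the adjusted p reached 0.0984. With a replicate block it was 0.135. Over the 24 genes of the STAT6 list reported here, 8 were tested, 2 were higher and 1 lower. The share called was 37.5%, beside 18.1% of all genes tested, and the median was 0.13. The serpin SERPINB2 had 2.54, 2.31 and 2.63 RPKM in vector and 12.7, 16.1 and 22.5 in oeRNF112 (log2 fold change 2.68, SE 0.194, adjusted p = 5.77e-05). IL13RA2 is on this list too. The 1 lower gene was the airway mucin MUC5AC, with 35, 60 and 18 counts in vector and 6, 6 and 9 in oeRNF112 (adjusted p = 0.00882, edgeR). It was scarce and passed the filter on low counts through the vector samples alone, so nothing is read from its call. TGM2, the most abundant gene of the list, had 240 ± 4.15 RPKM in vector and 236 ± 5.67 in oeRNF112 (SD, n = 3) and was not called. The lists overlap and many of their genes answer to other factors, and listed genes without a row were not analysed here.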

How the data were processed

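RNA of 3 vector and 3 oeRNF112 samples of T24 cells was extracted with TRIzol and sequenced from stranded mRNA libraries. Per the labels, the authors used Trimmomatic 0.36, the build GRCh38 and featureCounts of Subread 1.5.1. The aligner, the annotation and the strand setting of counting are not given in the sources used here. The labels' protocol mentions siRNA transfection, while the sample labels and the paper describe overexpression. The authors deposited raw read counts for each gene and a second table of RPKM. For 23152 of 23152 genes the RPKM equalled the count divided by the sample total and 1 gene length within 0.1%, so both tables hold 1 measurement.

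The counts were compared with edgeR 4.0.16 in R 4.3.3 (filterByExpr, TMM factors, quasi-likelihood test; SE from the F statistic). TMM factors ranged from 0.957 to 0.988 for vector and from 1.01 to 1.05 for oeRNF112. Scaled by sample total alone, without the TMM factor, a count of 3 equals between 0.0727 and 0.0749 CPM, for counting error alone. No 2 samples were copies. The script was tested on simulated data.

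The 10 genes and all lists were chosen with earlier results of these data known in part. Named genes are the 10 members, RNF112, all other STAT, JAK and SOCS genes and SOCS ligase partners, of each further list at most 6 called genes with the smallest p and the 2 of highest RPKM, the 3 genes most like each called member, and markers. Exceptions are marked in the text. SOCS2-AS1, NAB2, LRP1 and MAPKAPK3 were named for their overlap. The 15 alternatives were run, with DESeq2 1.42.0, other scaling or filters, a replicate block, each sample left out, and limma 3.58.1 on log2(RPKM + 1) or log2(RPKM + 0.1). Results of some listed genes are not reported here and are left out of the plots.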

Additional observations from a re-analysis of the deposited data

How the results depend on the processing

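STAT6 kept its call in all 15 alternatives, and STAT3, SOCS1 and SOCS3 their direction without a call. Of the 10 genes, 3 were called as lower in every alternative except 3. With a replicate block 1 remained (STAT6), and 876 genes in all were called, 618 higher and 258 lower, against 2620, 1442 and 1178 without it. The deviations of same-numbered samples correlated at -0.109, -0.337 and -0.276, so the numbers were not read as pairs. Leaving out 1 sample gave between 1 and 4 called members, 1 to 3 lower and 0 to 1 higher (CISH). Over all genes it gave between 1061 and 3387 calls, 702 to 1841 higher and 359 to 1546 lower. The fewest came without vector replicate 1. Scaling by library totals, which moves the median of all genes to 0.10, gave 2020 higher and 659 lower genes, and limma on RPKM gave 646, 652 and 603 lower genes with a pseudocount of 1, of 0.1, and of 1 with a mean RPKM of at least 1.
Genes near 0 changed sign. With library totals the log2 fold change was 0.0482 for JAK1, 0.0351 for TYK2, 0.0539 for CUL5, 0.0531 for IL10RB, 0.0807 for LIF and 0.0227 for CCND1. With limma on log2(RPKM + 1), with and without the RPKM filter, these were 0.0532, 0.0332, 0.0535, 0.0503, 0.081 and 0.0224, and with a pseudocount of 0.1 they were 0.0547, 0.0359, 0.0606, 0.0512, 0.0819 and 0.0225. Leaving out 1 sample gave ranges of -0.013 to 0.109 for STAT5B, -0.135 to 0.0405 for JAK1, -0.0337 to 0.247 for JAK2, -0.0436 to 0.128 for ELOC, -0.144 to 0.0343 for CUL5, -0.0831 to 0.0253 for IL10RB, -0.0626 to 0.0384 for LIF and -0.000908 to 0.0622 for PTPN1. The cause of these shifts was not tested. The widest intervals among the JAK, STAT and SOCS genes were those of CISH, SOCS1 and STAT4, the scarcest tested.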
